A study of Mus musculus with 4 samples.

Results

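The 10 genes described here were *Nodal*, its coreceptor gene *Tdgf1* (Cripto), the Nodal antagonist genes *Lefty1*, *Lefty2* and *Cer1*, the inhibitory SMAD gene *Smad7*, the ligand gene *Bmp4*, and the BMP target genes *Id1*, *Id2* and *Id3*. They were a list of names, each matched exactly to 1 of the 53379 gene identifiers in the deposited tables. This list, and the role and marker lists below, were chosen with earlier results of these data known. The shares of all tested genes set beside their counts are therefore descriptions, and no excess can be read from them. Bulk RNA of mouse embryonic stem cells (mESCs) of the line DKO741 was compared between PD100, the pre-ALT cells at population doubling 100, and PD800, the post-ALT cells at population doubling 800, with 2 libraries per group. ALT, alternative lengthening of telomeres, is the upkeep of telomeres without telomerase. Both groups carried the same genotype, *Terc*-/-, made in E14 cells (129/Ola strain) by targeting 1 allele of the telomerase RNA gene after the other with a loxP-flanked neo cassette, which adenoviral Cre removed after the first round. The 2 groups are thus an early and a late stage of 1 clonal line, so that time in culture and ALT cannot be told apart. Cells were kept on mouse embryonic fibroblast feeders and were feeder-free for RNA extraction, per the labels. The labels also speak of passages 100 and 800, and name total RNA where the study's text speaks of mRNA sequencing.

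Nodal is a ligand of the TGF-beta family that signals through activin receptors and the coreceptor Cripto to SMAD2 and SMAD3, which act with SMAD4 and FOXH1 on target genes. Its targets include *Nodal* itself and the *Lefty* genes, whose secreted products block the pathway. BMP4 signals through BMP receptors to SMAD1, SMAD5 and SMAD9, and the *Id* genes are its textbook targets in mESCs, where ID proteins bind E proteins and hold back differentiation.

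Total expected counts, the read pairs that RSEM assigned to genes, lay between 32454121 and 38492149 per library. The detection floor was set at 3 counts, which corresponded to 0.0743 to 0.0934 CPM, CPM being counts scaled by the TMM-adjusted library total. It covers counting error only. *Terc* had 1 count in PD100 replicate 1 and 0 in the other libraries. Of all genes, 19148 passed the expression filter, and their log2 fold changes (PD800 over PD100 throughout) had a median of 0.01. The study's methods call the libraries of a group biological duplicates, the labels do not say whether they came from separate cultures, and p-values measure the spread between these libraries. An exact permutation test of 2 libraries against 2 (two-sided) cannot go below p = 0.333, and the adjusted p-values below rest on the spread edgeR estimated over all genes. In bulk RNA, fewer cells of a type and less RNA per cell cannot be told apart.

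The *Lefty* genes and *Id1* fell between PD100 and PD800 (edgeR's quasi-likelihood test, called where the Benjamini-Hochberg adjusted p was under 0.01 and the change more than 2-fold). *Lefty1* was 18.4-fold lower, *Lefty2* 9.75-fold and *Id1* 3.14-fold. None of the 9 tested genes was called higher, where 6.28% of all tested genes were called higher and 8.81% lower (15.1% in either direction). Without the fold threshold, 8 of the 9 had an adjusted p under 0.01, 6 lower and 2 higher, against 28.5% of all tested genes (15.4% lower and 13.1% higher). At an adjusted p under 0.05 the members' counts were the same, against 45.6% of all tested genes (23.6% lower and 22.1% higher). Of the genes short of 2-fold, *Tdgf1*, *Smad7*, *Id3* and *Bmp4* missed an adjusted p of 0.01 when either PD800 library was left out (0.0212 to 0.0755) and on the log2(TPM + 0.1) scale (limma, 0.0124 to 0.236), whereas *Nodal* stayed under it. A fit without a PD800 library takes its spread from the PD100 pair alone. The log2 CPM of that pair correlated at 0.984, against 0.992 for the PD800 pair. The group ranges did not overlap for 8 of the 9, against 73.8% of all tested genes. The median log2 fold change of the 9 was -0.62. *Cer1* was at 0 counts in every library and was not tested.

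**Figure D1:**
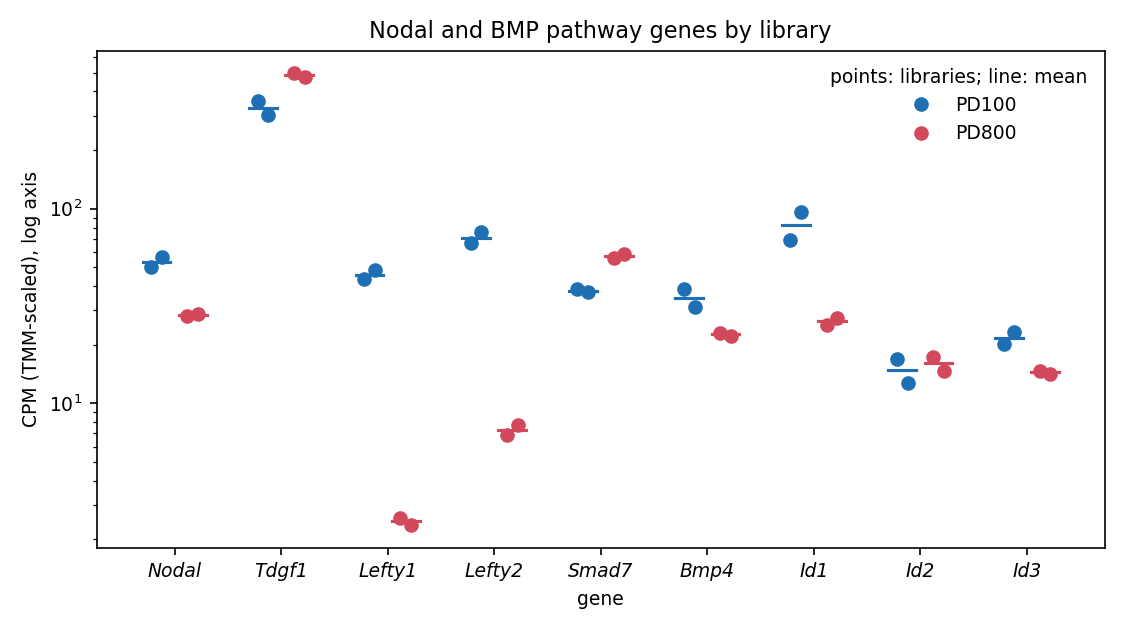
CPM (log axis) of the 9 detected genes, with 1 point per library and a line at each group's mean. The PD800 points of *Lefty1* and *Lefty2* lie at 2.37 to 7.72 CPM, those of PD100 at 43.3 to 75.6 CPM, and only the *Id2* ranges overlap.

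The promoter windows of *Nodal*, *Tdgf1* and *Bmp4*, the ligand and coreceptor genes, are shown because SMADs and FOXH1 are the pathway's own DNA-binding factors. Each line gives the 250 bases upstream of the RefSeq start on GRCm38.p6, 5' to 3' on the gene's strand, with matches to the letters CAGAC (SMAD3 or SMAD4), GGCGCC (GC-rich SMAD element) or AATNNACA (FOXH1), on either strand, in capitals. The windows were chr10:61417722-61417971 (+) for *Nodal*, chr9:110946159-110946408 (-) for *Tdgf1*, and chr14:46390670-46390919 (-) for *Bmp4*.
Nodal: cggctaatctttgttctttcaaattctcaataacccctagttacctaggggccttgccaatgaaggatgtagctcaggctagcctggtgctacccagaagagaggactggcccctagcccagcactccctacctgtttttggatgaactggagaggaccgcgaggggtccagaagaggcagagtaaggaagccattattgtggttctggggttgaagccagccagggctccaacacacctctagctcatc
Tdgf1: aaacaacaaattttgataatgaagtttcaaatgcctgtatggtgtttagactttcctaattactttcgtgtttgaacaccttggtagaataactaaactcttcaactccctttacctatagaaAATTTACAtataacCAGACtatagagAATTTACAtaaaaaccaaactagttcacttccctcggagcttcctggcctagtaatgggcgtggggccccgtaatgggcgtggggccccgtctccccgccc
Bmp4: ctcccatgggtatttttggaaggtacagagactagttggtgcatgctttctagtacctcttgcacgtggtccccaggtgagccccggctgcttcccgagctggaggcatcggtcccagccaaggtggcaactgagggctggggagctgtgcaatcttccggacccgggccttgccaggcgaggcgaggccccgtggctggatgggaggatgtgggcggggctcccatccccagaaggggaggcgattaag
The *Tdgf1* window held 2 matches to AATNNACA, starting 127 and 101 bases upstream, with 1 match to CAGAC between them. The *Nodal* and *Bmp4* windows held none of the 3, which says only that these letters are not in these windows. Over all 32807 RefSeq promoter windows of the same length, 42.2% held CAGAC, 9.59% GGCGCC and 10.9% AATNNACA. RefSeq entries were matched for 6 of the 10 genes. *Cer1* had 1 CAGAC match, *Id2* 1 GGCGCC match and *Id3* 2 CAGAC matches, but the *Id2* and *Id3* windows overlap an annotated exon and are not shown. *Lefty1*, *Lefty2*, *Id1* and *Smad7* were the others.

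*Nodal* (ENSMUSG00000037171.6), the ligand gene, lies on the plus strand of chromosome 10 in GRCm38 from 61417972 to 61425338. It had 49.9 and 56.2 CPM in the PD100 libraries and 28.2 and 28.9 CPM in the PD800 libraries. Both PD800 libraries were below both PD100 libraries. Mean CPM was 53.1 ± 4.45 against 28.5 ± 0.51 (SD, n = 2), a log2 fold change of -0.90 (SE 0.09, edgeR adjusted p = 0.000669). The difference was larger than the spread between replicates but, at 1.86-fold, did not reach the fold threshold. On the TPM scale, which corrects for gene length, the means were 20.2 ± 0.15 and 9.23 ± 0.21 (SD, n = 2). With limma the gene was called on log2(TPM + 1) (log2 fold change -1.05, adjusted p = 0.00302) and on log2(TPM + 0.1) (-1.12, adjusted p = 0.00637), so that 4 members were lower there. Those scales moved the median of all genes to -0.12 and -0.21, and relative to it *Nodal* was at -0.93 and -0.91. Among the 40 tested genes nearest to *Nodal*, the median log2 fold change was -0.98, and 13 of them were called lower and 1 higher. All 904 tested genes of chromosome 10 had a median of -0.23. *Nodal* thus differed from its neighbours' median by 0.09 on the log2 scale, and the part of the region in the gene's difference was not tested.

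*Tdgf1* (ENSMUSG00000032494.12) encodes Cripto, the membrane-anchored coreceptor through which Nodal reaches the activin receptors. It lies on the minus strand of chromosome 9 from 110939603 to 110946158, and was the most abundant of the 10 genes per length in both groups. Its levels were 356 and 303 CPM in PD100, and 495 and 473 CPM in PD800. Both PD800 libraries were the higher. Mean CPM was 330 ± 37.6 against 484 ± 15.7 (SD, n = 2), with a log2 fold change of 0.56 (SE 0.10, edgeR adjusted p = 0.00691), that is, 1.47-fold and not called. Mean TPM was 146 ± 27.8 against 181 ± 11.8 (SD, n = 2). On the log2(TPM + 1) scale, tested with limma, the log2 fold change was 0.32 (adjusted p = 0.192).

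*Tdgf1* shares 512 transcript bases at 98.8% identity with the pseudogene *Tdgf1-ps1*, so that its reads could be divided between them. *Tdgf1-ps1* had 870 and 1205 expected counts in PD100 and 1241 and 1322 in PD800. The summed level of both, an alternative chosen after seeing the data, was 378 and 339 CPM in PD100 and 530 and 514 CPM in PD800. Its log2 fold change was 0.54 (SE 0.09, edgeR adjusted p = 0.00434), close to that of *Tdgf1* alone.

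*Lefty1* and *Lefty2* encode secreted antagonists that bind Nodal and its coreceptor. They are neighbours on the plus strand of chromosome 1, *Lefty2* (ENSMUSG00000066652.5) from 180893108 to 180899103 and *Lefty1* (ENSMUSG00000038793.8) from 180935022 to 180938400. *Lefty1* had 43.3 and 48.2 CPM in PD100, and 2.59 and 2.37 CPM in PD800. The PD800 libraries were far below both PD100 libraries. Mean CPM fell from 45.8 ± 3.51 to 2.48 ± 0.16 (SD, n = 2), a log2 fold change of -4.20 (SE 0.11, edgeR adjusted p = 3.03e-05). *Lefty2* had 66.3 and 75.6 CPM in PD100, and 6.84 and 7.72 CPM in PD800. Here too the groups were widely apart. Mean CPM fell from 70.9 ± 6.61 to 7.28 ± 0.62 (SD, n = 2), with a log2 fold change of -3.29 (SE 0.11, edgeR adjusted p = 3.91e-05). Both genes remained well above the floor at PD800, at 75.6 to 248 expected counts.

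The 2 transcripts align over 1159 bases at 91.2% identity, which is 71.5% of the longest *Lefty1* transcript, and their counts held fractions in 3 of the 4 libraries. The division of reads between them is therefore uncertain, but not their sum, which came to 4422 and 4134 counts in PD100 and to 339 and 324 in PD800. The sum was 110 and 124 CPM in PD100, and 9.43 and 10.1 CPM in PD800. Its log2 fold change was -3.58 (SE 0.10, edgeR adjusted p = 3.11e-05), or 12.0-fold lower. For the 40 tested genes nearest to *Lefty1* the median log2 fold change was -0.28, with 3 called lower, and for those nearest to *Lefty2* it was -0.26, with 2 called lower. Relative to these medians, *Lefty1* had a log2 fold change of -3.92 and *Lefty2* one of -3.03.

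*Cer1* (ENSMUSG00000038192.5), a secreted antagonist of Nodal and BMPs on chromosome 4 from 82881751 to 82885148 (minus strand), had an expected count of 0 in all 4 libraries. The floor allows at most 0.0743 to 0.0934 CPM, and no difference could be measured at this depth. *Smad7* (ENSMUSG00000025880.11), which encodes an inhibitory SMAD induced by TGF-beta family signals, lies on the plus strand of chromosome 18 from 75367529 to 75395935. It had 38.5 and 37.4 CPM in PD100, and 56.0 and 58.4 CPM in PD800. Both PD800 libraries were the higher. Mean CPM was 37.9 ± 0.77 against 57.2 ± 1.70 (SD, n = 2), a log2 fold change of 0.59 (SE 0.07, edgeR adjusted p = 0.00161), or 1.51-fold and not called. With limma on log2(TPM + 1) the log2 fold change was 0.31 (adjusted p = 0.174), 0.42 above the median of all genes on that scale.

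Relative to *Nodal*, within each library and per length, the *Lefty* genes were lower and the coreceptor gene higher at PD800. The TPM of *Lefty1* and *Lefty2* together was 2.43 and 2.45 times that of *Nodal* in PD100, and 0.371 and 0.361 times in PD800. The *Tdgf1* to *Nodal* ratio was 8.24 and 6.22 in PD100, and 20.2 and 19.0 in PD800. The *Lefty1* to *Lefty2* ratio was 1.03 and 0.944 in PD100, and 0.533 and 0.426 in PD800, with the division of reads uncertain as above. None of these ratios overlapped between the groups, nor did the CPM ranges of 73.8% of all tested genes. The ratios share members and are not independent, and no test was made of them.

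**Figure D2:**
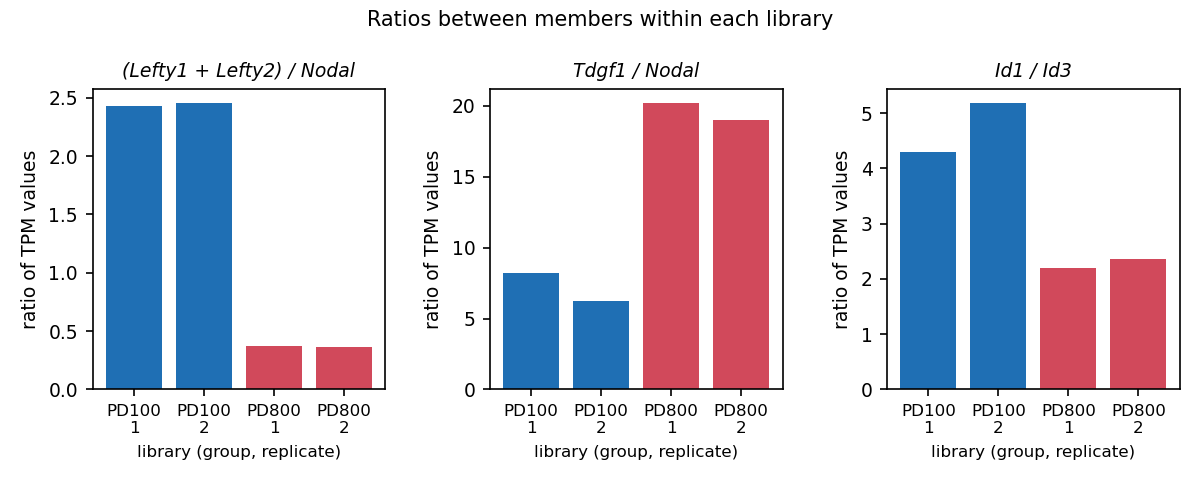
Ratios of TPM values within each of the 4 libraries, 1 bar per library from 0. The *Lefty* sum lay below the level of *Nodal* in both PD800 libraries (0.371 and 0.361), while *Tdgf1* over *Nodal* was at least 19.0 there and *Id1* over *Id3* at most 2.35.

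*Bmp4* (ENSMUSG00000021835.15), the BMP ligand gene, lies on the minus strand of chromosome 14 from 46383520 to 46390669. Its levels were 38.6 and 31.1 CPM in PD100, and 23.1 and 22.2 CPM in PD800. Both PD800 libraries were below both PD100 libraries, which differed more among themselves. Mean CPM was 34.8 ± 5.26 against 22.6 ± 0.60 (SD, n = 2), a log2 fold change of -0.62 (SE 0.12, edgeR adjusted p = 0.00736), or 1.54-fold and not called. On the log2(TPM + 1) scale, limma gave a log2 fold change of -0.63 (adjusted p = 0.0887). For its 40 nearest tested genes the median log2 fold change was -0.32, and the 701 tested genes of chromosome 14 had one of -0.31. *Gm15217* on the other strand overlaps 89 exonic bases of *Bmp4* and had 0 to 6 counts per library. The strand setting of the counting is not given in the sources used here.

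The *Id* genes encode helix-loop-helix proteins without a DNA-binding region, which hold E proteins away from DNA, and they did not move together. *Id1* (ENSMUSG00000042745.9), on the plus strand of chromosome 2 from 152736251 to 152737410, had 69.1 and 96.4 CPM in PD100, and 25.3 and 27.4 CPM in PD800. The PD100 libraries differed from each other, but both were above both PD800 libraries. Mean CPM fell from 82.7 ± 19.3 to 26.4 ± 1.44 (SD, n = 2), a log2 fold change of -1.65 (SE 0.16, edgeR adjusted p = 0.000685). Tested against a fold change of 2 rather than against none, the adjusted p was 0.0145, so that a change beyond 2-fold was not called there. *Id3* (ENSMUSG00000007872.3), on the plus strand of chromosome 4 from 136143497 to 136145755, had 20.3 and 23.3 CPM in PD100, and 14.6 and 14.2 CPM in PD800. Both PD800 values were the lower. Mean CPM was 21.8 ± 2.11 against 14.4 ± 0.27 (SD, n = 2), and the log2 fold change of -0.59 (SE 0.10, edgeR adjusted p = 0.0048) was short of 2-fold.

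*Id2* (ENSMUSG00000020644.9), on the minus strand of chromosome 12 from 25093799 to 25097140, had 16.9 and 12.8 CPM in PD100, and 17.4 and 14.7 CPM in PD800. The groups overlapped. Mean CPM was 14.8 ± 2.88 against 16.0 ± 1.91 (SD, n = 2), with a log2 fold change of 0.11 (SE 0.16, edgeR adjusted p = 0.604) whose sign turned on the TPM scale and without PD100 replicate 2 or PD800 replicate 1. *Id1* made up 70.9% and 77.3% of the summed TPM of the 3 genes in PD100, and 51.0% and 54.8% in PD800. The *Id1* to *Id3* ratio of TPM values was 4.30 and 5.18 in PD100, and 2.20 and 2.35 in PD800. For the 40 tested genes nearest to *Id1* the median log2 fold change was 0.10, and for those nearest to *Id3* it was 0.22. *Id4*, which belongs to the same family, rose from a low level, from 2.97 and 2.76 CPM to 6.54 and 7.81 CPM (log2 fold change 1.32, SE 0.16, edgeR adjusted p = 0.00126). It was not called on either TPM scale (limma, log2 fold changes 0.97 and 0.49, adjusted p = 0.0143 and 0.0166).

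**Figure D3:**
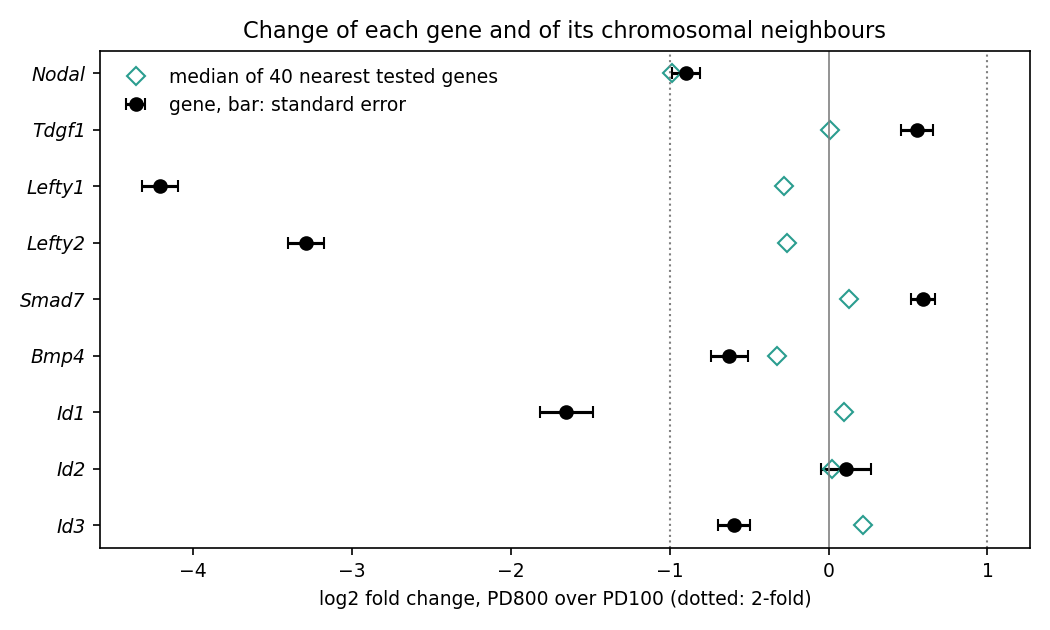
Log2 fold change (PD800 over PD100) of the 9 tested genes with the standard error as a bar, and the median of the 40 nearest tested genes as a diamond. *Nodal* at -0.90 lies beside its neighbours' median of -0.98, whereas *Lefty1*, *Lefty2* and *Id1* lie far from theirs.

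Per length, the order of the levels changed with the *Lefty* genes. In PD100 cells *Tdgf1* (146 TPM) stood above *Id1* (77.1 TPM), the *Lefty* genes (24.9 and 24.5 TPM), *Nodal* (20.2 TPM), *Bmp4* (17.7 TPM), *Id3* (16.2 TPM), *Id2* (10.4 TPM) and *Smad7* (7.72 TPM). The ranges of *Lefty2* and *Lefty1*, of *Nodal*, *Bmp4* and *Id3*, and of *Id2* and *Smad7* touched in that order, so that these neighbours did not differ beyond their spread. In PD800 cells *Tdgf1* (181 TPM) and *Id1* (21.1 TPM) were again the most abundant. *Bmp4* (10.8 TPM) came next by its mean, but its lower library equalled the higher *Id2* library at 10.53 TPM. *Smad7* (9.72 TPM), *Id2* (9.51 TPM), *Id3* (9.24 TPM) and *Nodal* (9.23 TPM) could not be separated. *Lefty2* (2.29 TPM) and *Lefty1* (1.09 TPM) were the lowest of the detected genes.

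Of 96 other genes of the 2 pathways, 80 passed the expression filter, 7 were called higher and 25 lower, and their median log2 fold change was -0.31. These are 8.75% and 31.2% of the 80, beside 6.28% and 8.81% of all tested genes. Some of these genes passed the filter only through the group in which they were high, so that the counts and medians by role are descriptions. With at least 10 counts required in every library, 69 genes were left, of which 6 were higher and 19 lower, beside 6.33% and 8.21% of all genes under that filter. None of the 16 genes of SMADs and their partners, the 7 of BMP receptors or the 3 of E proteins was called at the 2-fold threshold. Other settings called 3 of them, named after their values were seen. *Bmpr1b*, a BMP receptor gene with 1.09 and 1.74 CPM in PD100 and 2.98 and 3.30 CPM in PD800 (log2 fold change 1.16, SE 0.27, edgeR adjusted p = 0.0147), was higher with DESeq2 (adjusted p = 0.00899), no filter, protein-coding genes only, the replicate block (adjusted p = 0.00102) or without PD100 replicate 2. The BMP receptor gene *Acvr1* was lower on the log2(TPM + 0.1) scale (limma, adjusted p = 0.00673) and without PD100 replicate 1, and *Skil*, a SMAD corepressor gene, was lower on both TPM scales (limma, adjusted p = 0.00597 and 0.00292). At an adjusted p under 0.01 without it, 14 of the 80 were higher and 30 lower (13.1% and 15.4% of all tested genes), among them 3 of the SMAD list (1 higher, 2 lower), 2 BMP receptor genes (both lower) and 2 E protein genes (both higher).

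**Figure D4:**
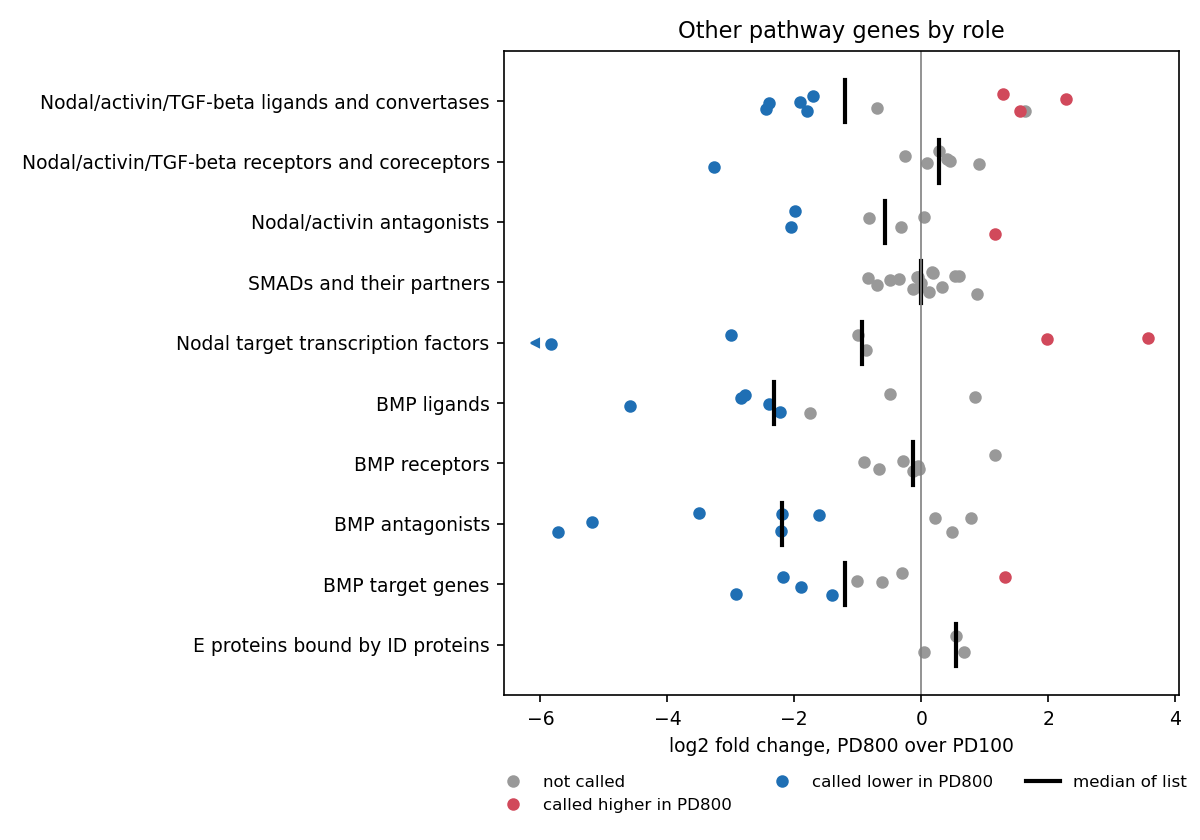
Log2 fold change (PD800 over PD100) of the 80 other tested pathway genes by role, 1 point per gene, coloured by call, with a bar at each list's median. *Foxa2*, at the floor in PD800, is drawn at its bound with an arrowhead, and no point among SMADs and their partners is coloured.

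Among 10 genes for other Nodal, activin and TGF-beta ligands and their convertases, 3 rose and 5 fell, with a median log2 fold change of -1.21. With limma, 2 rose and 2 fell on log2(TPM + 1), and 1 rose and 4 fell on log2(TPM + 0.1). On log2(TPM + 1), genes under 1 TPM in PD100, such as *Inhba* and *Tgfb3*, cannot fall 2-fold. *Inhbb*, the activin B subunit gene, rose from 6.39 and 7.01 CPM to 29.8 and 35.4 CPM (log2 fold change 2.28, SE 0.12, edgeR adjusted p = 9.22e-05). *Gdf3*, a Nodal-related ligand of pluripotent cells, rose from 41.4 and 31.6 CPM to 88.3 and 89.8 CPM (log2 fold change 1.29, SE 0.13, edgeR adjusted p = 0.000776), but was not called on either TPM scale (limma, adjusted p = 0.0241 and 0.0198). *Tgfb2* fell from 5.202 and 5.003 CPM to 1.00 and 0.871 CPM (log2 fold change -2.44, SE 0.18, edgeR adjusted p = 0.000264). Its log2 fold change was -0.68 on the log2(TPM + 1) scale. At 0.95 and 0.82 TPM in PD100, no fall could reach 2-fold there. The convertases that cleave the Nodal precursor moved apart, named after their values were seen. *Pcsk6* (PACE4) rose (log2 fold change 1.55, SE 0.07, edgeR adjusted p = 7.42e-05, but 0.0124 with limma on log2(TPM + 0.1)) and *Furin* fell (log2 fold change -1.80, SE 0.10, edgeR adjusted p = 0.000112).

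Of 7 tested receptor and coreceptor genes of this branch, 1 fell and none rose, with a median of 0.28. That gene was *Tgfbr2*, the type II receptor of TGF-beta rather than of Nodal, which fell from 14.6 and 15.2 CPM to 1.56 and 1.53 CPM (log2 fold change -3.27, SE 0.12, edgeR adjusted p = 4.47e-05). The activin and Nodal receptor gene *Acvr1b* (ALK4) had 29.5 and 28.6 CPM against 55.4 and 53.7 CPM, a log2 fold change of 0.91 (SE 0.07, edgeR adjusted p = 0.000343) short of 2-fold. *Acvr2b* had a log2 fold change of 0.09 (SE 0.14, edgeR adjusted p = 0.629), and its sign turned on the TPM scale. Among 6 other antagonist genes of the branch, 1 rose and 2 fell. *Tmeff1*, whose product binds Cripto, rose from 57.4 and 60.8 CPM to 131 and 134 CPM (log2 fold change 1.17, SE 0.07, edgeR adjusted p = 0.000155), and *Cd109*, a TGF-beta coreceptor that limits its signal, fell from 31.98 and 29.15 CPM to 7.18 and 7.59 CPM (log2 fold change -2.05, SE 0.10, edgeR adjusted p = 7.04e-05). *Tmeff1* was short of 2-fold on both TPM scales (limma, log2 fold changes 0.79 and 0.77).

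The 16 genes of SMADs and their partners had a median log2 fold change of -0.01. *Smad2* (0.19, SE 0.09, edgeR adjusted p = 0.135), *Smad4* (-0.004, SE 0.07, edgeR adjusted p = 0.97) and *Smad1* (-0.02, SE 0.09, edgeR adjusted p = 0.893) differed by less than the test could call, and the signs of all 3 turned under at least 1 other scaling or gene filter. *Smad3*, a Nodal effector, had a log2 fold change of -0.49 (SE 0.09, edgeR adjusted p = 0.00714) and *Smad5*, a BMP effector, one of 0.60 (SE 0.07, edgeR adjusted p = 0.00134), both short of 2-fold. *Foxh1*, the DNA-binding partner of SMAD2, had 36.6 and 27.2 CPM against 20.9 and 18.3 CPM (log2 fold change -0.70, SE 0.16, edgeR adjusted p = 0.0135). Of 6 tested genes for transcription factors downstream of Nodal, 2 rose and 2 fell, and of the 3 with at least 10 counts in every library 1 rose and 1 fell. With limma none of the 6 was called higher on either TPM scale, and 2 fell on log2(TPM + 0.1) and 1 on log2(TPM + 1). *Eomes*, a mesendoderm regulator, rose from 2.25 and 2.01 CPM to 9.32 and 7.53 CPM (log2 fold change 1.98, SE 0.17, edgeR adjusted p = 0.000414), but was not called on either TPM scale (limma, adjusted p = 0.0112 and 0.0125). *Foxa2*, an endoderm regulator, had 230 and 147 counts in PD100 and 1 count in each PD800 library, passed the filter only through PD100, and was at least 57.1-fold lower there, taking the floor of 3 counts per library.

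On the BMP side, 5 of 8 tested ligand genes fell and none was called higher (median -2.32). With at least 10 counts in every library, 3 of 5 fell. With limma, 2 of the 8 fell on log2(TPM + 1) and 5 on log2(TPM + 0.1). *Bmp7*, named after its values were seen, was higher but short of 2-fold (log2 fold change 0.845, SE 0.15, edgeR adjusted p = 0.00639). *Bmp8b* fell from 8.65 and 7.16 CPM to 1.75 and 1.62 CPM (log2 fold change -2.23, SE 0.17, edgeR adjusted p = 0.000269). *Bmp2* fell from 127 and 65 counts to 1 and 6 counts (log2 fold change -4.58, SE 0.59, edgeR adjusted p = 0.00161). The gene passed the expression filter only through PD100, PD800 replicate 1 was under the floor, and the log2 fold change was -3.75 without it and -6.36 without PD800 replicate 2. On the log2(TPM + 1) scale *Bmp2* was not called (limma, -0.61, adjusted p = 0.027). At 0.72 and 0.40 TPM in PD100, no fall could reach 2-fold there, since 1 is added to each TPM value. The 5 also held *Bmp1*, named after its values were seen, which encodes a metalloprotease and not a ligand. Of 9 tested antagonist genes, 6 fell and none was called higher (median -2.19), and 4 of 7 fell with at least 10 counts in every library. *Bambi*, named after its values were seen, was higher but short of 2-fold (log2 fold change 0.79, SE 0.09, edgeR adjusted p = 0.00119). *Bmper*, whose product binds BMPs, fell from 466 and 354 counts to 7 in each PD800 library (log2 fold change -5.73, SE 0.20, edgeR adjusted p = 3.86e-05), and also passed the filter only through PD100. *Nbl1* (DAN) fell from 2.43 and 2.34 CPM to 0.751 and 0.809 CPM (log2 fold change -1.61, SE 0.21, edgeR adjusted p = 0.00187). It was not called without PD800 replicate 1 (adjusted p = 0.0154) or replicate 2 (0.0113), nor on the log2(TPM + 1) scale (-0.68). The receptor gene *Bmpr1a* had 121 and 115 CPM against 118 and 114 CPM (log2 fold change -0.03, SE 0.07, edgeR adjusted p = 0.751). Of 8 other tested BMP target genes, 1 rose, *Id4* as above, and 4 fell (median -1.21), among them *Hand1*, a trophoblast and mesoderm regulator, from 4.78 and 4.52 CPM to 0.779 and 0.436 CPM (log2 fold change -2.92, SE 0.28, edgeR adjusted p = 0.000579). That count of 4 was 1 without PD800 replicate 1, 2 without PD800 replicate 2, and 1 on the log2(TPM + 1) scale, and *Hand1* was lower in each of these fits. *Msx1* (0.25 and 0.26 TPM in PD100) and *Dlx3* (0.48 and 0.33 TPM), 2 of these targets, could not fall 2-fold on the log2(TPM + 1) scale. The 3 E protein genes had a median of 0.55, with none called.

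Over the 10704 candidate genes with at least 5 CPM on average, the 3 most like *Lefty1* in pattern, by the Euclidean distance of log2 CPM deviations over the 4 libraries, were *Krt8* (distance 0.210), *Pla2g7* (0.261) and *Chst15* (0.274). *Krt8*, an epithelial keratin gene, had 387 and 413 CPM in PD100, and 19.1 and 20.1 CPM in PD800. The 3 most like *Id1* were *Sord* (distance 0.0765), *Col7a1* (0.0852) and *Col5a2* (0.105). *Sord* had 29.1 and 38.8 CPM in PD100, and 10.96 and 11.27 CPM in PD800, and like *Id1* was highest in PD100 replicate 2.

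Markers of other cell types moved with the groups (all tested genes: 6.28% higher and 8.81% lower). Of 11 tested primitive endoderm markers, 10 fell and none rose (median log2 fold change -3.66). The summed level of the list was 243 and 263 TPM in PD100 and 15.4 and 15.6 TPM in PD800. Most of the PD100 sum came from *Col4a1* (150 and 178 TPM) and *Lama1* (49.9 and 50.6 TPM), so that it says little of the other markers. Several primitive endoderm markers passed the filter only through PD100, and with at least 10 counts in every library 8 of 8 fell, as did 5 of 8 fibroblast markers. *Gata6*, a primitive endoderm regulator, had 4.06 and 3.14 TPM against 0.25 and 0.23 TPM. Of 9 tested fibroblast markers, 5 fell and none rose, with a summed level of 13.4 and 13.6 TPM against 3.91 and 3.96 TPM, and *Col1a1* at 1.81 and 2.97 TPM against 0.22 and 0.32 TPM. Of 12 mESC markers, 5 rose and none fell. The primitive endoderm marker *Afp* (0 to 0.04 TPM) and the fibroblast marker *Lum* (0 to 0.01 TPM) were at or near 0 in all libraries. *Pou5f1* (Oct4) had 306 and 296 TPM in PD100 and 325 TPM in both PD800 libraries, and *Nanog* 35.7 and 29.3 TPM against 146 and 129 TPM, so that defining markers of the labelled cell type were present in all 4 libraries. Among formative markers 1 of 6 rose and 4 fell, and among neural markers 3 of 5 rose and 1 fell. Among primitive streak markers 2 of 7 rose and 2 fell (1 and 1 of the 4 with at least 10 counts in every library), and among trophoblast markers 1 of 6 rose and 3 fell. The lists share genes, so that their counts are not independent. *Eomes* is in the streak, trophoblast and Nodal target lists, *Foxa2* in the endoderm, streak and Nodal target lists. *Cdx2* is in the streak and trophoblast lists, and *Hand1* in the trophoblast and BMP target lists. The part of these cell types in the lower levels of *Lefty1*, *Lefty2*, *Id1* and the other pathway genes was not tested.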

How the data were processed

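RNA of DKO741 cells at PD100 and PD800 was sequenced with paired-end reads. The authors aligned the reads to mm10 with STAR (version 2.5.3a) and deposited, per gene and library, the expected count of RSEM (version 1.3.0), which divides reads that align to several genes and is not scaled for depth. The authors also deposited TPM, which RSEM scaled for length and to the same total in every library. The annotation release is not given in the sources used here. Of 53379 identifiers, 53274 were found in GENCODE M21 (GRCm38), which gave coordinates.

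Expected counts were rounded and tested with edgeR 4.0.16 in R 4.3.3, using filterByExpr (minimum count 10), TMM factors and the quasi-likelihood test over 19148 genes. Calls required a Benjamini-Hochberg adjusted p under 0.01 together with a change of more than 2-fold. Replicates varied more than sampling gives (common dispersion 0.0136). The standard error was taken from the fold change and the F statistic. *Lefty* sums were fitted in the whole table. Shared sequence was sought with blastn 2.17.0 (at least 100 bases at 90% identity). Promoters are from RefSeq.

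The 10 genes, the role lists and the marker lists were chosen with earlier results of these data known. Besides the 10, named genes were the highest and lowest called gene of each role list with at least 1 CPM on average, 10 fixed receptor, SMAD and ligand genes, and the 3 genes most like the highest and lowest called member. Chromosome medians were added after seeing the data.

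Alternatives were DESeq2 1.42.0, its size factors in edgeR, upper-quartile normalisation, no filter, a stricter filter, protein-coding genes only, the replicate block, limma 3.58.1 on log2(TPM + 1) and log2(TPM + 0.1), other thresholds, 10 neighbours on each side, and each library left out.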

Additional observations from a re-analysis of the deposited data

How the results depend on the processing

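*Lefty1* and *Lefty2* were called lower under all 15 alternatives, and *Id1* under all but the test against a fold change of 2. At an adjusted p under 0.05 with no fold threshold, 6 members were lower and 2 higher (main: 3 and 0), and the whole table gave 4224 higher and 4515 lower genes (main: 1202 and 1686). The test against a 2-fold change gave 386 and 685, limma on log2(TPM + 1) 274 and 872, and limma on log2(TPM + 0.1) 454 higher genes. The TPM scales moved the median of all genes to -0.12 and -0.21, and the share of calls that were higher from 41.6% to 23.9% and 22.0%. Of the other pathway genes, log2(TPM + 1) called 2 higher and 13 lower, and log2(TPM + 0.1) 1 higher (main: 7 and 25). On log2(TPM + 1), a gene under 1 TPM in PD100 cannot fall 2-fold. With 1 library left out, 880 to 1514 genes were higher and 1274 to 1893 lower, taking the lone library to vary like the other group. The adjusted p of *Tdgf1* (0.0755 and 0.0482), *Smad7* (0.0212 and 0.0339), *Id3* (0.0324 and 0.0394) and *Bmp4* (0.0351 and 0.0491) exceeded 0.01 without PD800 replicate 1 or 2. The log2 fold change of *Id2* was -0.11 and -0.10 on the TPM scales and -0.092 to 0.332 with a library left out. Those of *Acvr2b* were -0.062 and -0.053, and of *Smad2* -0.12 and -0.11, on the TPM scales. *Smad1* gave 0.009 and *Smad4* 0.021 with protein-coding genes only, and *Smad4* 0.009 with upper-quartile normalisation. With a library left out, *Acvr2b* ranged from -0.081 to 0.261, *Bmpr1a* from -0.089 to 0.007, *Smad1* from -0.057 to 0.012 and *Smad4* from -0.051 to 0.025. With 10 neighbours on each side, the medians were -0.062 for *Tdgf1*, 0.471 for *Cer1*, 0.241 for *Smad7*, -0.014 for *Id1* and 0.143 for *Id3*. The cause of these shifts was not tested.

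The replicate numbers of the labels are shared by both groups, but nothing says that they mark the same culture or day, and the deviations of same-numbered libraries correlated at 0.27 over 2 pairs. With the replicate number as a block, 3 members were lower and none higher, 1461 genes of the whole table were higher and 1956 lower, and the log2 fold change of the *Lefty* sum was -3.58 (edgeR adjusted p = 1.98e-09).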
